A study of Mus musculus with 10 samples.

Results

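The PAX genes encode 9 transcription factors, *Pax1* to *Pax9*, that share a DNA-binding paired domain. They were chosen by gene symbol, and all 9 of them were found among the 24302 genes of both deposited comparisons. The samples were whole C57BL/6 mouse embryos at embryonic day 11.5, 3 of them wildtype (genotype "wild type"), 3 heterozygous for a deletion of *Wwc2* ("WWC2-/+") and 4 homozygous KO ("WWC2-/-"), and their RNA was sequenced. *Wwc2* encodes a cytoplasmic scaffold protein of the Hippo pathway, which restrains the transcriptional coactivators YAP and TAZ. The deletion was made by a *Cre* under the promoter of *Zp3*, a gene of growing oocytes, crossed to a floxed *Wwc2* allele, so that the mother's supply of *Wwc2* mRNA and protein was removed along with the embryo's own. The study describes the KO embryos as small and delayed for their age, so genotype and developmental stage cannot be told apart in these comparisons. The RNA came from the homogenized embryo. A change of a gene in such RNA can come from fewer cells of a type or from less RNA per cell, and these cannot be told apart.

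PAX proteins act early in organ formation, and most of them mark small fields of cells before an organ is visible. *Pax1* and *Pax9* act in the sclerotome, the part of the somite that forms the vertebral column, and in the pharyngeal pouches. *Pax2*, *Pax5* and *Pax8* act in the nephric duct and kidney, at the midbrain-hindbrain boundary, in the ear and in the thyroid, *Pax3* and *Pax7* in the dorsal neural tube, the neural crest and the muscle-forming dermomyotome, and *Pax4* and *Pax6* in the eye, the brain and the pancreas. Loss of a member often removes or reduces the organ it marks, as in mice without *Pax2*, which form no kidneys, or without *Pax6*, which form no eyes.

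The paired box, the coding sequence of the paired domain, is what the members share. The lines below show 90 bases of coding sequence of each gene, taken from the transcripts of GENCODE release M21 on GRCm38, the build that mm10 corresponds to. Each stretch is the one most like the best conserved 90 bases of *Pax2*, and capitals mark the bases that differ from the base most members have.
*Pax1* (chr2:147365813-147365902, plus strand, exon 2 of Pax1-201): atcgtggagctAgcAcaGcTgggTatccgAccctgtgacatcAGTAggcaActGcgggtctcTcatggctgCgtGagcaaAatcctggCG
*Pax2* (chr19:44760952-44761041, plus strand, exon 2 of Pax2-201): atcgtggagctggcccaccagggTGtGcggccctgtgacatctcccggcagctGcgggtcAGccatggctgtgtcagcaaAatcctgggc
*Pax3* (chr1:78195308-78195397, minus strand, exon 2 of Pax3-201): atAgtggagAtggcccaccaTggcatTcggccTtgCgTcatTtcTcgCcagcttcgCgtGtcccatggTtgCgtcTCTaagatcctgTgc
*Pax4* (chr6:28446316-28446692, minus strand, exons 3 and 4 of Pax4-201): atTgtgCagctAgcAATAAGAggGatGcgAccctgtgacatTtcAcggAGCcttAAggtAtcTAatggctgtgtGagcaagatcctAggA
*Pax5* (chr4:44697524-44697613, minus strand, exon 2 of Pax5-201): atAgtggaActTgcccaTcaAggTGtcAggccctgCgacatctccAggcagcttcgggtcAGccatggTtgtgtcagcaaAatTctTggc
*Pax6* (chr2:105683902-105684919, plus strand, exons 4 and 5 of Pax6-202): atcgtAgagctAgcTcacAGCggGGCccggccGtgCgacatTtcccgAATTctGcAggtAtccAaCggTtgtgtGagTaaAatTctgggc
*Pax7* (chr4:139830195-139830284, minus strand, exon 2 of Pax7-202): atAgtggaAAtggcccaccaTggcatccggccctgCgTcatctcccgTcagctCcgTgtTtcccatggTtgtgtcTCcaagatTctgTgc
*Pax8* (chr2:24444568-24444657, minus strand, exon 3 of Pax8-201): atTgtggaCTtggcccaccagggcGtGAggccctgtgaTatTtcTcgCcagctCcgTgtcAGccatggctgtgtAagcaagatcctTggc
*Pax9* (chr12:56696654-56696743, plus strand, exon 2 of Pax9-201): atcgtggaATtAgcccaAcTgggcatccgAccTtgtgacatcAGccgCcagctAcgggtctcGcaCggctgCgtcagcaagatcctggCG
All 9 members had the same base at 36 of the 90 positions. The 4 most alike of the 36 pairs each lay within one subfamily: *Pax3* and *Pax7* shared 78 of 90 bases, *Pax2* and *Pax5* 77, *Pax2* and *Pax8* 76, and *Pax1* and *Pax9* 75. *Pax4* and *Pax6*, also of one subfamily, shared 62 bases, and *Pax4* and *Pax7* were least alike with 52. The longest run of identical bases between the transcripts of any pair, 37 bases between *Pax3* and *Pax6*, was shorter than the length to which reads were sequenced.

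The deposited tables give for each gene the mean normalized count over the 10 embryos and, for KO versus wildtype and for heterozygous versus wildtype embryos, a log2 fold change with its standard error (SE) and p-values. Values per embryo were not used here. The level of each genotype was worked out from that mean and the 2 fold changes, and from the standard errors the spread between embryos of one genotype was obtained as a coefficient of variation that the authors' fit takes as common to the 3 genotypes. Counts are relative to the authors' size factors. Summed over genes they came to 2.38e+07, 2.37e+07 and 2.83e+07 per embryo in wildtype, heterozygous and KO embryos. *Wwc2* itself had derived means of 1971, 1860 and 2421 normalized counts in the same order, with a log2 fold change in KO versus wildtype of 0.30 (SE 0.17). Reads over all of the gene are counted, so the value does not check the genotypes.

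In KO embryos, 4 of the PAX genes were lower than in wildtype embryos and none was higher. *Pax8* fell to 40.3% of the wildtype level, *Pax1* to 47.7%, *Pax2* to 49.8% and *Pax7* to 60.1%. *Pax9*, *Pax5*, *Pax6* and *Pax3* were at 66.9%, 64.6%, 84.6% and 97.3% of the wildtype level and did not pass the test. *Pax4* was close to absent in all genotypes. The 4 genes are of 8 PAX genes with an adjusted p in the authors' deposited table at a threshold of 0.05 (DESeq2, Benjamini-Hochberg over 17477 genes), where 10.2% of all genes were lower and 15.6% were higher. The median log2 fold change was -0.68 over the 8 PAX genes and 0.02 over all genes tested. Of the 4 genes, 3 also had an absolute log2 fold change above 1, as did 3.56% of all genes on the lower side. The derived counts of the 9 genes summed to 3974, 3873 and 2662 in wildtype, heterozygous and KO embryos.

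**Figure D1:**
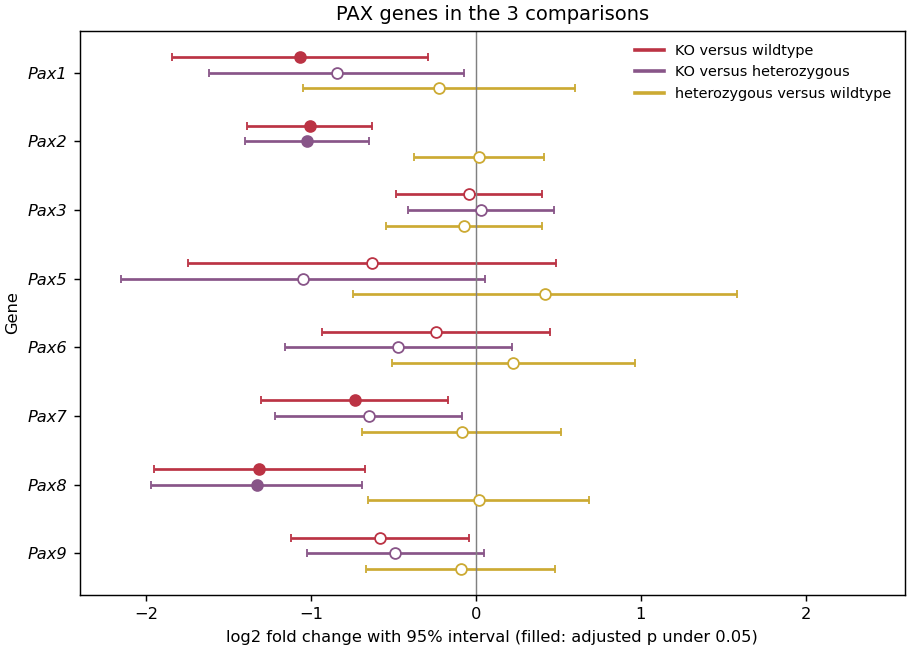
log2 fold change (x axis) of 8 PAX genes (y axis) in KO versus wildtype, KO versus heterozygous and heterozygous versus wildtype embryos, with 95% intervals as bars and filled points at an adjusted p under 0.05. *Pax1*, *Pax2*, *Pax7* and *Pax8* lie below 0 with filled points in KO versus wildtype, *Pax2* and *Pax8* also in KO versus heterozygous, and no point of heterozygous versus wildtype is filled.

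The calls differed in how firm they were. A log2 fold change of at least 2.49 standard errors was needed for an adjusted p under 0.05, and *Pax2* and *Pax8* lay well past it while *Pax1* (adjusted p = 0.0336) and *Pax7* (adjusted p = 0.0461) lay close to it. The scaling moved the background. When genotypes were scaled to the same sum of derived counts, which lowered each log2 fold change of KO embryos by 0.25, 5 PAX genes were lower, *Pax9* among them, but 30.9% of all genes were lower and 8.22% higher under that scaling. When the statistic was read against a t distribution (7 degrees of freedom) in place of the normal one, no gene of the 17477 had an adjusted p under 0.05, and *Pax2* and *Pax8* each had one of 0.131.

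**Figure D2:**
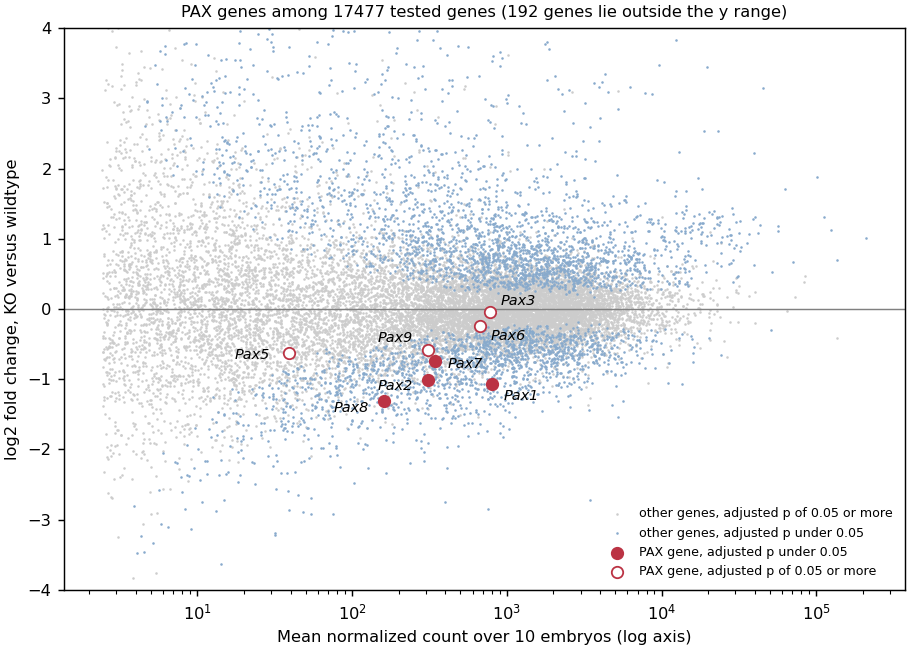
log2 fold change in KO versus wildtype embryos (y axis) against the mean normalized count over the 10 embryos (x axis, log axis) for 17477 genes, with the PAX genes as large points, filled at an adjusted p under 0.05. All 8 PAX genes drawn lie below 0, and 192 genes lie outside the y range.

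Compared with heterozygous embryos, 2 PAX genes were lower in KO embryos, *Pax2* and *Pax8*, and none was higher. This comparison was derived here (Wald test, Benjamini-Hochberg over 20653 genes), and 8.22% of all genes were lower in it and 13.2% higher. *Pax2* had a log2 fold change of -1.02 (SE 0.19, adjusted p = 1.79e-05) and *Pax8* one of -1.33 (SE 0.33, adjusted p = 0.00155). *Pax1* had a log2 fold change of -0.84 (SE 0.40, adjusted p = 0.105) and *Pax7* one of -0.65 (SE 0.29, adjusted p = 0.0885), which did not pass. Scaled by the sum of the derived counts, 5 PAX genes were lower than in heterozygous embryos, beside 25.9% of all genes. The KO embryos are the same in both comparisons, so the second does not stand apart from the first.

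No PAX gene passed the test in heterozygous versus wildtype embryos. The log2 fold changes of the 8 genes lay between -0.22 for *Pax1* and 0.42 for *Pax5*, and each had an adjusted p of 0.999997 in the authors' deposited table. For *Pax2* the value was 0.02 with a 95% interval of -0.38 to 0.41, and for *Pax8* it was 0.02 with an interval of -0.65 to 0.69. The background was just as low: 0.00484% of 20653 genes were lower and 0.00484% higher, 1 gene each, and an unadjusted p under 0.05 was found for 75 genes, none of them a PAX gene. Those 75 are a share far below 0.05, which is what no difference at all would give. The lack of a call therefore does not show equal levels. The wildtype embryos are the reference of both deposited comparisons.

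The level of the members differed far more between genes than between genotypes. Per kb of exons, *Pax1* was the most abundant in wildtype embryos with 240.3 normalized counts per kb and *Pax3* the next with 129. Then came *Pax9*, *Pax7*, *Pax2* and *Pax6* with 72.3, 71.7, 71.2 and 57.9, *Pax8* with 34.7, *Pax5* with 4.60 and *Pax4* with 0.093. The 95% intervals of *Pax1* and *Pax3* overlapped, as did those of each neighbouring pair from *Pax9* to *Pax8*, while *Pax3* lay apart from *Pax9* and *Pax8* apart from *Pax5*. In KO embryos the first 2 places were exchanged, with *Pax3* at 125 and *Pax1* at 115 normalized counts per kb and overlapping intervals, and *Pax2* lay apart from *Pax8* at 35.4 against 14.0. Divided by the longest transcript instead of the union of exons, 5 of the 9 genes kept their place in the wildtype order, and *Pax6* moved to the third place with 153 normalized counts per kb.

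**Figure D3:**
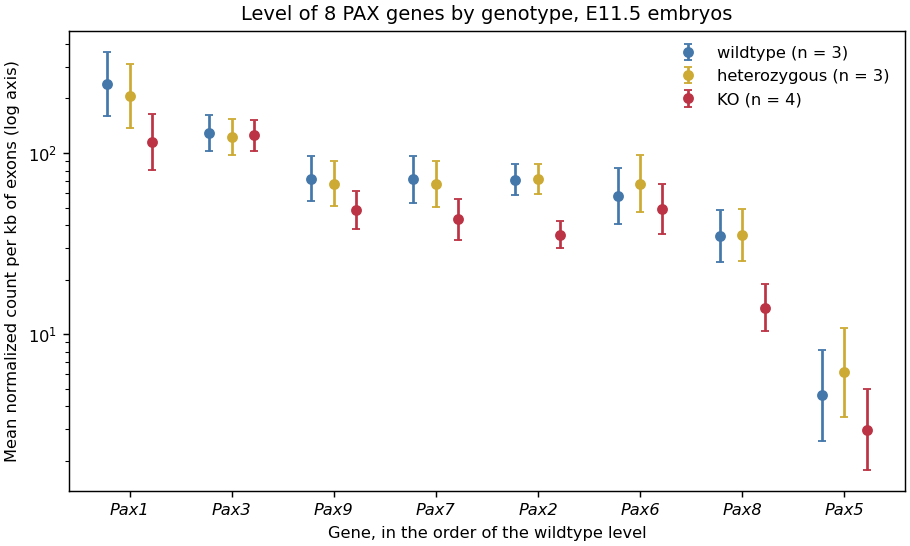
Derived mean normalized count per kb of exons (y axis, log axis) of 8 PAX genes in the order of their wildtype level (x axis), for 3 wildtype, 3 heterozygous and 4 KO embryos, with 95% intervals as bars. The KO points of *Pax1*, *Pax2*, *Pax7*, *Pax8* and *Pax9* lie below the intervals of both other genotypes, for *Pax2* and *Pax8* with their whole interval, and the 3 points of *Pax3* lie close together.

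*Pax2* (ENSMUSG00000004231, chromosome 19, 44756045 to 44837871) is an early marker of the kidney lineage and is also expressed in the optic and otic vesicles and at the midbrain-hindbrain boundary. Its derived mean was 385 ± 38.2 normalized counts in 3 wildtype embryos (SE), 390 ± 38.6 in 3 heterozygous embryos and 192 ± 17.2 in 4 KO embryos. The wildtype and heterozygous means differed by less than their errors, and the KO mean lay outside the 95% interval of either. The log2 fold change in KO versus wildtype was -1.01 (SE 0.19, adjusted p = 2.51e-05 in the authors' deposited table). The coefficient of variation between embryos was 16.4%, the lowest of the PAX genes.

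*Pax8* (ENSMUSG00000026976, chromosome 2, 24420560 to 24475599) acts with *Pax2* in the nephric duct and is needed for the follicular cells of the thyroid. Its derived mean was 211 ± 35.4, 213 ± 35.8 and 84.8 ± 12.8 normalized counts in wildtype, heterozygous and KO embryos (SE). The interval of the KO mean ended at 114 and that of the wildtype mean began at 152. With a log2 fold change of -1.31 (SE 0.33, adjusted p = 0.00163), *Pax8* had the largest decrease of the 8 PAX genes tested. *Pax5* (ENSMUSG00000014030, chromosome 4, 44524757 to 44710487), known for the midbrain-hindbrain boundary and for B cell commitment, had far fewer counts, with derived means of 40.7, 54.4 and 26.3 in wildtype, heterozygous and KO embryos. Its coefficient of variation from the fit was 48.4%, and its KO versus wildtype log2 fold change of -0.63 (SE 0.57, adjusted p = 0.404) did not pass. A change of 1.41 would have been needed for a call at this precision. Of the B cell markers, *Ms4a1*, without an adjusted p, had derived means of 0.297 and 0.678 normalized counts in wildtype and KO embryos. *Rag1*, with 61.9 and 20.1, had a log2 fold change of -1.62 (adjusted p = 0.0531) and did not pass. *Ebf1*, a factor that other embryonic tissues express too, was the 1 gene called of 6 tested in that list (log2 fold change -0.92, adjusted p = 0.00264). When scaled by the sum of the derived counts 3 were lower. The median of these 6 was -0.38, and 4 of them were below 0.

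The lists of tissues that the *Pax2* subfamily marks held few called genes, some lower and some higher. Of 14 genes of the nephric duct and kidney, 4 were lower and 1 was higher in KO versus wildtype embryos, with a median log2 fold change of -0.32, where 10.2% of all genes were lower and 15.6% higher. The same shares stand beside each list that follows, and they are 30.9% and 8.22% when scaled by the sum of the derived counts. *Gfra1*, the co-receptor for the ureteric bud signal GDNF, had a log2 fold change of -1.12 (adjusted p = 0.00518), and *Lhx1*, a nephric duct factor also made by neurons, one of -1.50 (adjusted p = 0.0122). *Gdnf* itself and *Ret*, also in this list, had values of -0.39 (adjusted p = 0.282) and -0.31 (adjusted p = 0.540) and did not pass. *Gata3*, which follows *Pax2* and *Pax8* in the nephric duct and is also a trophoblast factor, was higher by 1.41 (adjusted p = 0.000352). Of 10 genes of the midbrain-hindbrain boundary, none was lower and 2 were higher, with a median of 0.47: the signals *Fgf8*, with a log2 fold change of 1.88 (adjusted p = 2.95e-06), and *Wnt1*, with one of 2.25 (adjusted p = 0.000184). Both signals are also made outside the boundary, and under the sum scaling 2 genes of this list were lower and 2 higher. In KO versus heterozygous embryos 1 of the 10 was lower and 2 were higher, beside 8.22% and 13.2% of all genes. The lower gene was *En1*, with a log2 fold change of -0.70 (Wald test, adjusted p = 0.0243), and the median of the list was -0.05. In KO versus wildtype embryos none of 10 inner ear genes passed in either direction (median -0.43), 8 of them below 0. At an unadjusted p under 0.05 the count was 0 as well, while under the sum scaling 1 was lower. Of 6 thyroid genes tested, *Hhex*, a factor of the thyroid bud, the liver and the endothelium, was higher by 1.53 (adjusted p = 0.0124) and none was lower, with a median of 0.37. That 1 call of 6 is a share near the 15.6% of all genes.

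*Pax1* (ENSMUSG00000037034, chromosome 2, 147361925 to 147393295) is made in the sclerotome and the pharyngeal pouches. Its derived mean was 1079 ± 223, 925 ± 191 and 515 ± 92.6 normalized counts in wildtype, heterozygous and KO embryos (SE). The 95% intervals of the wildtype and KO means, 719.8 to 1619 and 362 to 733, overlapped at their ends. The log2 fold change in KO versus wildtype was -1.07 (SE 0.40, adjusted p = 0.0336), close to that of *Pax2*, but the coefficient of variation of 35.7% was above that of *Pax2* and the adjusted p far higher. *Pax9* (ENSMUSG00000001497, chromosome 12, 56691767 to 56712822), its partner in the sclerotome and the gene of the thymus, parathyroid and tooth fields, had derived means of 365, 343 and 245. Its KO versus wildtype log2 fold change of -0.58 (SE 0.28, adjusted p = 0.0975) was below the 0.68 needed for a call.

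Of 15 genes of the sclerotome and cartilage, 5 were lower in KO versus wildtype embryos and none was higher, with a median log2 fold change of -0.47, beside 10.2% of all genes lower. Under the sum scaling 9 were lower, beside 30.9% of all genes. In KO versus heterozygous embryos 6 of the 15 were lower and none was higher, beside 8.22% and 13.2% of all genes. *Sox5* and *Sox6*, factors of the cartilage program, had log2 fold changes of -0.89 (adjusted p = 0.00239) and -0.75 (adjusted p = 0.00234). *Col2a1*, the main cartilage collagen and the most abundant of the list, had derived means of 17189 and 16266 normalized counts in wildtype and KO embryos and did not pass. Of 10 genes tested of the pharyngeal pouch, thymus and palate list, 3 were lower and 1 was higher, with a median of -0.15. *Osr2*, a palate factor, had a log2 fold change of -1.62 (adjusted p = 0.0312) and the cofactor *Eya1* one of -0.76 (adjusted p = 0.0183), while *Bmp4*, a signal of many epithelia, was higher by 0.76 (adjusted p = 0.0358), a call lost under the sum scaling, where no gene of this list was higher. *Foxn1* and *Gcm2*, the factors that define thymus and parathyroid, had derived means of 5.16 and 1.63 normalized counts in wildtype embryos.

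*Pax3* and *Pax7* are made in overlapping fields. *Pax3* (ENSMUSG00000004872, chromosome 1, 78101267 to 78197134), the factor of the dorsal neural tube, early neural crest and limb muscle precursors, had derived means of 795 ± 94.1, 758 ± 89.8 and 774 ± 79.4 normalized counts in wildtype, heterozygous and KO embryos (SE). Its log2 fold change in KO versus wildtype was -0.04 (SE 0.23, adjusted p = 0.913), with a 95% interval of -0.48 to 0.40, which leaves out a change as large as that of *Pax2*. In KO versus heterozygous embryos its value of 0.03 became -0.23 when scaled by the sum of the derived counts, and it passed under neither scaling. *Pax7* (ENSMUSG00000028736, chromosome 4, 139737062 to 139833528), which later marks the muscle satellite cells, had derived means of 420 ± 63.4, 396 ± 59.8 and 252 ± 33.4. The log2 fold change in KO versus wildtype was -0.73 (SE 0.29, adjusted p = 0.0461), the call nearest to the threshold. Adjusted over all 20653 genes with a p-value, it had an adjusted p of 0.0544.

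Of 12 genes of the dermomyotome and muscle progenitors, 4 were lower and none was higher in KO versus wildtype embryos, with a median log2 fold change of -0.51, beside 10.2% of all genes lower and 15.6% higher. They were *Lbx1*, a factor of migrating limb muscle precursors and dorsal spinal neurons (-1.20, adjusted p = 0.0167), *Msc* (-1.50, adjusted p = 0.0206), *Myod1* and *Myog*. The last of these are muscle differentiation factors with values of -1.95 and -1.62. Of 16 genes of the dorsal neural tube and neural crest, 5 were higher and 2 lower, with a median of -0.01. *Kit*, a receptor of melanoblasts and of blood and germ cells, was higher by 0.83 (adjusted p = 0.00468) and *Mitf*, the melanocyte factor, by 2.04 (adjusted p = 0.00542). The neural crest genes *Ednrb* and *Sox10*, a receptor and a factor of the glial and enteric lineages, had log2 fold changes of -0.46 (adjusted p = 0.0361) and -1.05 (adjusted p = 0.0445). Scaled by the sum of the derived counts, 2 genes of this list were higher.

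*Pax6* (ENSMUSG00000027168, chromosome 2, 105668900 to 105697364), the factor of the eye, the cortex and the ventral spinal cord, had derived means of 678 ± 125, 793 ± 146 and 573 ± 91.6 normalized counts in wildtype, heterozygous and KO embryos (SE). The 3 intervals overlapped. The log2 fold change was -0.24 in KO versus wildtype (SE 0.35, adjusted p = 0.623), and a change of 0.88 would have been needed for a call. *Pax4* (ENSMUSG00000029706, chromosome 6, 28442334 to 28449353), a factor of the insulin-producing cell lineage, had a mean of 0.266 normalized counts, or 2.66 summed over the 10 embryos, which is under a floor of 3 counts. It has no adjusted p in KO versus wildtype, and no fold change is given.

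Of 16 eye and lens genes, 1 was lower and 2 were higher in KO versus wildtype embryos, with a median of -0.42. *Pitx3*, a lens and dopamine neuron factor, had a log2 fold change of -1.64 (adjusted p = 0.0179). The genes called higher were *Mitf*, also a factor of the retinal pigment epithelium, and *Cryab*, a small heat shock protein of lens and muscle (1.85, adjusted p = 0.0163). Under the sum scaling 4 eye and lens genes were lower. Of 20 genes of the forebrain and ventral neural tube, 17 had a log2 fold change below 0 but only *Emx2* was lower (-1.01, adjusted p = 0.0392), while *Irx3* was higher (0.51, adjusted p = 0.0249), with a median of -0.41. Under the sum scaling 3 genes of this list were lower and none was higher, so that *Irx3* lost its call. Compared with heterozygous embryos, 4 of the 20 were lower in KO embryos and 1 was higher, beside 8.22% and 13.2% of all genes. The 4 were *Dlx1*, *Emx1*, *Emx2* and *Tbr1*. *Emx2* is also made in the urogenital tract. Of 11 pancreas genes tested, *Isl1*, a factor of islets and motor neurons, was the only one called (-0.74, adjusted p = 0.0334), and the median was -0.74. It is also one of the 12 neuron markers listed here, and under the sum scaling 4 pancreas genes were lower. In KO versus heterozygous embryos 2 of 14 pancreas genes were lower and none was higher. Of the hormone genes in that list, *Ins1* and *Ins2* had derived means of 0.303 and 0.317 normalized counts in wildtype embryos. *Gcg* had 51.6 in wildtype and 19.5 in KO embryos, with a log2 fold change of -1.40 (adjusted p = 0.052), and did not pass.

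PAX proteins work with a family of homeodomain factors and with the cofactors EYA and DACH in kidney, ear, muscle and eye. Of 12 genes of this network, 5 were lower in KO versus wildtype embryos and none was higher, with a median log2 fold change of -0.40, beside 10.2% of all genes lower. *Eya4* had the largest decrease, with a log2 fold change of -1.32 (SE 0.33, adjusted p = 0.00140) and derived means of 801, 695 and 320 normalized counts in wildtype, heterozygous and KO embryos. *Eya1* was lower by less, and *Six5* and *Eya3* had log2 fold changes of -0.39 and -0.26. *Eya2* and *Six4* had values of 0.24 and 0.07. In KO versus heterozygous embryos *Eya4* was the 1 gene of the 12 that was lower, a share near the 8.22% of all genes.

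**Figure D4:**
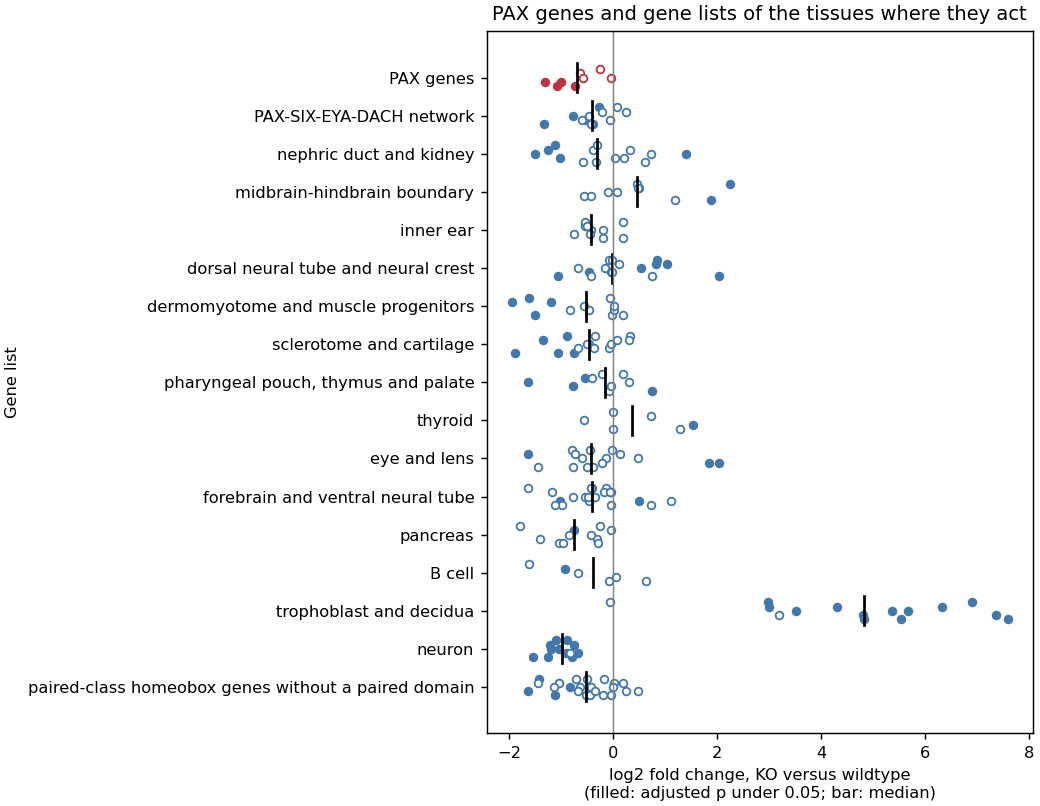
log2 fold change in KO versus wildtype embryos (x axis) of the genes with an adjusted p in each of 17 lists (y axis), filled at an adjusted p under 0.05, with a bar at each list's median. The PAX genes (top, red) have a median of -0.68, the neuron markers lie below 0, and all but 1 of the trophoblast and decidua markers lie at 2.98 or above.

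Markers of other cell types moved with genotype beside these values. Of 12 neuron markers, 11 were lower in KO versus wildtype embryos, with a median log2 fold change of -0.98, and their summed level was 50088, 55028 and 26066 normalized counts in wildtype, heterozygous and KO embryos. *Dcx* and *Syt1*, genes of young neurons and of synaptic vesicles, had log2 fold changes of -1.53 (adjusted p = 0.00181) and -1.25 (adjusted p = 0.00152). Of 15 markers of trophoblast and decidua, 13 were higher, with a median of 4.82, and their summed level was 13315, 3205 and 56926. *Prl8a2*, which decidual cells make, gave 12165 of the wildtype sum, and no marker of this list was at 0 in any genotype. *Ascl2* and *Hand1*, trophoblast factors, had log2 fold changes of 4.82 (adjusted p = 1.76e-09) and 2.99 (adjusted p = 1.26e-06). These sums were 0.0559% of all derived counts in wildtype and 0.201% in KO embryos. The part of these cell types in the PAX values was not tested.

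For no pair of related PAX genes did the 95% interval of their difference exclude 0. The difference of the log2 fold changes in KO versus wildtype was 0.70 for *Pax3* minus *Pax7* (95% interval -0.03 to 1.42), the nearest to excluding 0, and -0.49 for *Pax1* minus *Pax9* (-1.43 to 0.46). It was 0.31 for *Pax2* minus *Pax8* (-0.44 to 1.05), -0.38 for *Pax2* minus *Pax5* (-1.55 to 0.80) and 0.68 for *Pax5* minus *Pax8* (-0.60 to 1.97). These intervals take the errors of both genes as independent, although both were measured in the same embryos. They are wide, and do not show that the members of a pair acted alike. In the other comparisons all of these intervals also included 0.

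The genes whose pair of log2 fold changes, in KO and in heterozygous versus wildtype embryos, lay nearest to that of *Pax2* were *Ppp1r17*, *Heyl*, *Adcy5*, *Pou4f1* and *Fam212b*, at distances of 0.0084, 0.010, 0.014, 0.017 and 0.017 log2 units among 12613 genes with a mean of at least 100 normalized counts. *Ppp1r17* had derived means of 419, 421 and 209 normalized counts in wildtype, heterozygous and KO embryos, and *Heyl*, a Notch target, had 770.5, 774.5 and 385. There were 110 genes within 0.1 log2 units of *Pax2*. *Pax1*, *Pax7* and *Pax8*, at distances of 0.247, 0.290 and 0.306, were the PAX genes nearest to it, at places 526, 695 and 764 in that order.

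Within 500 kb of the 9 PAX genes, 5 of 76 tested genes were lower and 8 higher in KO versus wildtype embryos, or 6.58% and 10.5%, against 10.2% and 15.6% of all genes. Near *Pax2*, 2 of 15 tested genes were lower, *Lbx1* and *Pdzd7*, and *Scd1* was higher, with a median log2 fold change of 0.03. Near *Pax8*, 1 of 9 was lower and 1 higher, and near *Pax7*, 3 of 10 were higher and none lower. Near *Pax4*, 1 of 6 was lower and 1 higher, near *Pax5*, 2 of 13 were higher, and near *Pax6*, 1 of 8 was lower. No neighbour of *Pax1*, *Pax3* or *Pax9* was called. Some genes overlap the PAX genes on the opposite strand. *AI646519*, antisense to the start of *Pax1*, had a log2 fold change of -0.37 (adjusted p = 0.673), and *Slc25a21*, which meets *Pax9* tail to tail, one of -0.27 (adjusted p = 0.46). *Pax6os1*, antisense to the start of *Pax6*, had a mean of 3.16 normalized counts. *5730488B01Rik*, on the opposite strand within *Pax5*, had a mean of 30.5 normalized counts, where *Pax5* had 39.1. Its log2 fold change was -0.57 (adjusted p = 0.332), where that of *Pax5* was -0.63. The study's methods name a directional library kit, but whether the counting used strand is not given in the sources used here.

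Promoter sequence was taken from RefSeq on GRCm38.p6 as windows of 300 bases around a start, from 250 bases before to 50 after it. Of the 9 PAX genes 7 had a window, 10 in all, and *Pax3* and *Pax4* had none. The lines below show, for the 4 genes that were lower in KO embryos, the 100 bases just before a start, with CpG dinucleotides in capitals. For *Pax2*, which has 3 starts, the start with most CpG is shown.
*Pax1* (chr2:147364894-147364993, plus strand): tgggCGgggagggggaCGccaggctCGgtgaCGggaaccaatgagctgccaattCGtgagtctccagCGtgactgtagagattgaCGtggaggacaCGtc
*Pax2* (chr19:44756806-44756905, plus strand): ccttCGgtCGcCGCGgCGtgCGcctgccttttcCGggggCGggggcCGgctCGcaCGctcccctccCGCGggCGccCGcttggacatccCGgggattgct
*Pax7* (chr4:139832969-139833068, minus strand): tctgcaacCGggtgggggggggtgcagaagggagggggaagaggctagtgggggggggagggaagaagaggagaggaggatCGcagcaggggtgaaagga
*Pax8* (chr2:24475600-24475699, minus strand): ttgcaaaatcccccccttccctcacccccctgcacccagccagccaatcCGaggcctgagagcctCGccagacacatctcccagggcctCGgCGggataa
The windows held 7 to 30 CpG, against a median of 7 over all 32851 windows. Those of the 3 *Pax2* starts held 7, 23 and 30, the last at the start shown, and that of *Pax8* held 7. The letters GGAATG, the core that TEAD factors (the partners of YAP) bind, were in none of the 10 PAX windows on either strand and in 14.7% of all windows. The GC box GGGCGG was in 6 windows, of *Pax1*, *Pax2*, *Pax5*, *Pax7* and *Pax8*, and in 35.7% of all windows. ACGTG, the core of the hypoxia response element, was in a window of *Pax1*, *Pax5* and *Pax6* and in 19.6% of all windows. A match describes the sequence alone.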

How the data were processed

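Total RNA of 10 whole embryos was made into poly(A) libraries with NEBNext Ultra kits, of which the study's methods name the directional RNA kit. Per the study's methods and processing notes, the authors trimmed reads with Trimmomatic 0.33, used HISAT2 for alignment to mm10 and HTSeq for counts per gene, and fitted DESeq2 to all 10 embryos. The deposited values used here are the mean normalized count per gene (signal), the log2 fold change, its standard error (a score) and the p-values for KO versus wildtype and heterozygous versus wildtype embryos. These columns are the authors' own comparisons and were used because the tables hold no values per embryo. p-values measure the spread between the embryos, which the labels give as separate samples.

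Genotype means were derived from the overall mean and both fold changes, and the dispersion from both standard errors. The dispersions from the 2 tables had a median ratio of 1.01 over genes with a mean of at least 10. KO versus heterozygous embryos were compared by a Wald test with Benjamini-Hochberg adjustment over 20653 genes (Python 3.11.15, scipy 1.17.1, checked on simulated data). Intervals are 95% and called genes have an adjusted p under 0.05. The PAX genes and the 16 gene lists were chosen with earlier results of these data known. Named are all PAX genes, in each list up to 2 genes called higher and 2 called lower with the smallest adjusted p, and the 5 genes nearest to *Pax2*. Others named, such as *Myod1*, *Col2a1*, *Six5* and the hormone genes, were chosen after their values were seen. Of 22835 Ensembl identifiers, 22785 were found in GENCODE M21. Alternatives were another scaling, centring, filters on low means, a t distribution, a fold threshold, another dispersion and another gene length.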

Additional observations from a re-analysis of the deposited data

How the results depend on the processing

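No paired analysis was possible because the tables hold no values per embryo, and leaving out each replicate could not be run for the same reason, so no single embryo's part in a value is known. Over 160 values of single PAX genes under the alternatives, 147 kept their direction and their side of the threshold. Many of them could hardly move, since the heterozygous values were far from a call and several alternatives leave the fold change as it was. In KO versus heterozygous embryos the adjustment over all genes is also the main setting. Under the scaling by the sum of derived counts, *Pax3* in KO versus heterozygous embryos changed direction, with a log2 fold change of -0.23, without passing under either scaling. The count of PAX genes lower in KO versus heterozygous embryos was 5 under that scaling in place of 2, and the count of listed tissue genes lower in KO versus wildtype embryos was 63 in place of 37, since the scaling lowers every fold change of KO embryos by about 0.25. Against a t distribution (7 degrees of freedom), 0 PAX genes were lower in KO versus wildtype embryos in place of 4, and 0 in KO versus heterozygous embryos in place of 2, as was the case for all genes in all 3 comparisons, so this setting says nothing particular to the PAX genes. *Pax7* alone was lost when p-values were adjusted over all genes, or when an absolute log2 fold change above 1 was also asked for, which left 3 PAX genes beside 3.56% of all genes. With the length of the longest transcript, 5 of 9 PAX genes kept their place in the wildtype order. The counts of PAX genes lower in heterozygous versus wildtype embryos were 0 under the 6 alternatives, and none of the differences between related PAX genes excluded 0 with the errors added.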

Other observations

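Homeobox genes of the paired class that lack a paired domain, the relatives of *Pax3*, *Pax4*, *Pax6* and *Pax7* that bind DNA by the homeodomain alone, were mostly below the wildtype level in KO embryos. Of 24 genes tested, 5 were lower and none was higher, with a median log2 fold change of -0.52, beside 10.2% of all genes lower. *Prrx1*, a factor of limb and craniofacial mesenchyme, had derived means of 6986, 6616 and 3943 normalized counts in wildtype, heterozygous and KO embryos, and a log2 fold change in KO versus wildtype of -0.83 (SE 0.25, adjusted p = 0.00961 from DESeq2 in the authors' deposited table). *Shox2*, a factor of the limb skeleton and the pacemaker of the heart, had derived means of 1627, 1806 and 747, and a log2 fold change of -1.12 (SE 0.35, adjusted p = 0.0124). Also lower were *Otp* and *Pitx3*, with log2 fold changes of -1.42 and -1.64. *Otp* is made in neurons, of whose 12 listed markers 11 were lower in the same embryos. The part of that cell type in these values was not tested. Scaled by the sum of the derived counts, 9 of the 24 genes were lower, beside 30.9% of all genes.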
